A study of Mus musculus with 27 samples.

Results

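The 9 genes described here, B2m, H2-D1, H2-K1, Tap1, Tap2, Tapbp, Psmb8, Psmb9 and Nlrc5, encode the core of the MHC class I antigen presentation pathway. They were chosen by symbol, as rows carrying the symbol alone or joined to another symbol by a plus sign, out of 14558 rows named in all 5 RNA-Seq tables of the study. Each of the 9 genes had a row of its own in each table and none was joined to another gene. All libraries came from mouse erythroleukaemia (MEL) cells, an established line of virus-transformed erythroid progenitors that can be induced to differentiate in culture. The study asked how the co-repressor ETO2, encoded by Cbfa2t3, and its partners IRF2BP2, LSD1 (encoded by Kdm1a) and GFI1B control the genes of erythroid progenitors. Control MEL cells carrying non-targeting shRNA (Eto2 WT, 2 libraries) were compared with cells carrying shRNA against Cbfa2t3 (Eto2 KD-sh2 and Eto2 KD-sh3, 2 libraries each). The same design was used for Irf2bp2 with a single hairpin (Irf2bp2 WT and Irf2bp2 KD-sh1, 2 libraries each) and for Kdm1a (Lsd1 WT, 1 library, and Lsd1 KD, 2 libraries). For Gfi1b the study used a pair of siRNAs against it (Gfi1b WT and Gfi1b KD, 2 libraries each). The library labelled Gfi1b KD replicate 1 held more Gfi1b RNA than both controls, as described below. MEL cells were also sequenced before and after induced differentiation (MEL non-induced and MEL induced, 2 libraries each).

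MHC class I molecules display peptides from the inside of the cell to cytotoxic T cells. Each consists of a polymorphic heavy chain, here H2-K1 or H2-D1, and the invariant light chain beta-2 microglobulin (B2m). Peptides are cut by the proteasome, whose catalytic subunits Psmb8 and Psmb9 replace constitutive subunits in the immunoproteasome, and are pumped into the endoplasmic reticulum by the Tap1-Tap2 transporter, where tapasin (Tapbp) bridges the transporter and the empty heavy chain. The genes are inducible by interferon, and Nlrc5 is known as the transactivator of class I promoters.

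On the mm9 assembly B2m lay at chr2:121973422-121978819 on the plus strand. The other members apart from Nlrc5 lay on chromosome 17 within the MHC and its extended flank. Tapbp was at chr17:34052844-34066235 (plus strand), H2-K1 at chr17:34132962-34137278 (minus strand) and H2-D1 at chr17:35399675-35404444 (plus strand). The remaining 4 formed a compact block in the order Psmb9 (chr17:34318932-34324697, minus strand), Tap1 (chr17:34324498-34334170), Psmb8 (chr17:34334666-34338399) and Tap2 (chr17:34340472-34353266), the last 3 on the plus strand. The GENCODE spans of Psmb9 and Tap1 overlapped head to head by 200 bp, while their RefSeq starts, at 34324275 and 34324501, lay apart. The coding sequences of H2-K1 and H2-D1 were 91.5% identical in an alignment, and 10.1% of the 50-base words of H2-K1 also occurred in H2-D1, so the split of reads between the heavy chains is uncertain. The H2 haplotype of the MEL line is not given in the sources used here, and reads of these highly polymorphic genes were aligned to the mouse reference assembly.

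The promoters of the light and heavy chains are shown because the deposited binding sites cover them. Both are the 250 bases before the RefSeq start (RefSeq windows of GRCm38.p6, placed on mm9 by exact match). B2m is read from chr2:121973173-121973422 on the plus strand, and its capitals mark, from left to right, an ISRE core, an NF-kB match, an X2 core and a Y box on the other strand. H2-K1 is read from chr17:34137293-34137542 on the minus strand, and its capitals mark 2 overlapping NF-kB matches, an X2 core and a Y box on the other strand.
B2m: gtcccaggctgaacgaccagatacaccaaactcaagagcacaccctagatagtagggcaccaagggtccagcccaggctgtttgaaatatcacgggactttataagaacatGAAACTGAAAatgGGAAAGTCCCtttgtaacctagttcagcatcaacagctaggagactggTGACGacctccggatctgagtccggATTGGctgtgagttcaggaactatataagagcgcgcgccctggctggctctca
H2-K1: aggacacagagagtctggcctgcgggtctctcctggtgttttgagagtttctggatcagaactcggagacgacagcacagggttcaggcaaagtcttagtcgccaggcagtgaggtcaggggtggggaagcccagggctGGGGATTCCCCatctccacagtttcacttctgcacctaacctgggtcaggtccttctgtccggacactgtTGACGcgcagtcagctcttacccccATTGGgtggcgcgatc
Letters were searched exactly on both strands of the window from 250 bases before to 50 bases after the start. The ISRE core, GAAA followed by any 2 bases and GAAA again, which interferon regulatory factors bind, was in 3.44% of all 32851 promoter windows and, among the 7 members matched to a window, only in that of B2m, 139 bases before the start. The X2 core TGACG was in 20.8% of windows and in those of B2m, H2-K1, H2-D1, Tap1 and Psmb9. The Y box CCAAT was in 37.4% of windows and in those of the same 5 genes and Tapbp. A match to the NF-kB motif was in 8.46% of windows and in those of B2m, H2-K1 and H2-D1. The GAS motif TTCNNNGAA was in 8.3% of windows and, among the members, only in that of Psmb8. The GATA motif AGATAA was in 11.2% of windows and in no member's window. The Tap2 and Nlrc5 promoters were not analysed here.

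Shorter pieces of 30 bases show the matched letters of the other members, again in capitals. The H2-D1 piece (chr17:35399865-35399894, plus strand) holds the NF-kB matches and differs from the corresponding 30 bases of H2-K1 at 1 base. The Psmb8 piece (chr17:34335040-34335069, plus strand) holds the GAS match, the Tap1 piece (chr17:34324412-34324441, plus strand) an X2 core and the Tapbp piece (chr17:34056255-34056284, plus strand) a Y box on the other strand. The upstream windows of Tap1 and Psmb9 share 225 bases on opposite strands, so the X2 core of Tap1 is also that of Psmb9.
H2-D1: gctGGGGATTCCCCatctcctcagtttcac
Psmb8: ctgTTCCCAGAAgatgcccccccccgtccc
Tap1: aggTGACGacagagggtcctgccctcaatc
Tapbp: tttATTGGtcacttcacttggcttcccaac

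In control MEL cells, 8 of the 9 members were expressed at measurable levels, and their order was similar across the tables. Over the 9 control libraries the authors' RPKM, a level per transcript length and depth, was highest for B2m (lowest 113, median 144, highest 163), which ranked first in all 5 tables. Psmb8 (lowest 61.5, median 77.7, highest 91.2) and H2-K1 (lowest 51.8, median 76.2, highest 95.6) exchanged the second and the third place, and their control libraries were apart with Psmb8 higher in 2 of 5 tables. Ranked by table mean, as for the other members, H2-D1 was the fourth in every table, with a median RPKM of 70.1, between 42.8 and 78.4. Single libraries did not all keep this order. In MEL non-induced replicate 1 H2-D1 had 70.1 RPKM, against 68.5 for H2-K1 and 61.5 for Psmb8. The peptide transporter subunit Tap2 was the fifth in every table, with a median RPKM of 32.6, between 18.8 and 39.7. Psmb9 (median 17.8, range 12.4 to 25.8), Tap1 (median 15.9, range 12.3 to 20.7) and Tapbp (median 15.9, range 12.2 to 26.1) followed, and Tap1 and Tapbp had no fixed order. Both Tapbp controls were above those of Tap1 in the Cbfa2t3 table (21.6 and 26.1 against at most 18.1 RPKM), and the single Kdm1a control had them the other way (14.5 against 15.2). Within the immunoproteasome pair, Psmb8 was thus several-fold above Psmb9 per length, and within the transporter Tap2 was above Tap1 in every table by rank.

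**Figure D1:**
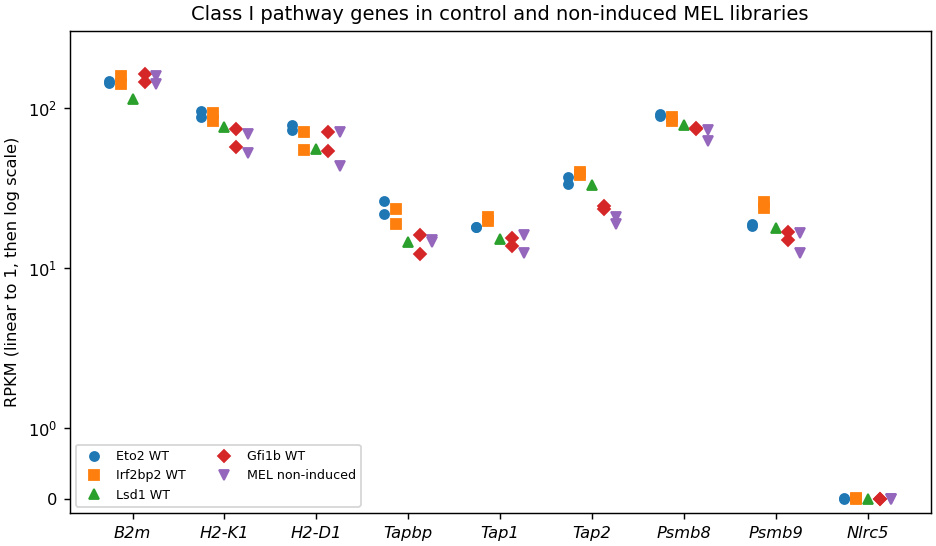
RPKM (axis linear to 1, then on a log scale) of each member in the control or non-induced libraries of the 5 tables, 1 point per library (9 libraries, marked by table). B2m lies highest, between 113 and 163, while Psmb9, Tap1 and Tapbp lie together between about 12.2 and 26.1.

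Nlrc5, which is annotated at chr8:96996663-97051172 as a lincRNA in the annotation used here, was listed with 0 counts in 15 of 21 libraries. It had 1 to 5 counts in 4 libraries and more in 2, with the highest count, 14, in the library labelled Gfi1b KD replicate 2 and 7 counts in MEL induced replicate 1. A count of 0 allows up to 3 counts, which is 0.0519 to 0.302 CPM (counts scaled to the depth of the library) at the depths of these libraries and covers counting error only. Nlrc5 passed the low-count filter in none of the tables, so the comparisons below cover the other 8 members.

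The ChIP-Seq data gave one list of sites occupied by ETO2 or IRF2BP2 in MEL cells, called by the authors against IgG. Within 20 kb of the start of a member there were 15 sites, forming 23 pairs of site and gene since neighbouring genes share sites. Of these, 14 were occupied by IRF2BP2 without ETO2, 1 by both and 0 by ETO2 alone, with a fold enrichment between 3.0 and 10.8. Across the genome the list held 8739 IRF2BP2-only, 1760 ETO2-only and 2730 shared sites.

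IRF2BP2-only sites covered the annotated start of 4 members, B2m, H2-K1, H2-D1 and Psmb8. The B2m site (chr2:121972892-121973959, fold enrichment 4.55) was centred 69 bp upstream of the start, inside an annotated intron of Patl2, and covers the promoter printed above. The H2-K1 site (chr17:34136866-34137730, fold enrichment 7.0) was centred 162 bp upstream. The H2-D1 site (chr17:35399364-35400334, fold enrichment 3.79) was centred 274 bp downstream, in an annotated H2-D1 exon, but 90 bp upstream of the RefSeq start. Psmb8 had adjoining sites centred 86 bp (chr17:34334370-34334983, fold enrichment 4.83) and 543 bp (chr17:34334983-34335555, fold enrichment 7.33) downstream of its start. From the RefSeq start of Psmb8 these centres lay 388 bp upstream and 69 bp downstream. For Tapbp the nearest site (chr17:34056003-34057017, fold enrichment 5.38) was centred 3676 bp downstream of the gene's outermost start but 97 bp downstream of the RefSeq start, in an annotated exon. With the outermost gene starts, 4 of the 8 members expressed in MEL cells had an IRF2BP2-occupied site within 1 kb, against 20.8% of 11220 genes. With any annotated transcript start, which was chosen after the Tapbp site had been seen, this was 5 of 8 against 24.6%. The nearest sites to the starts of Psmb9 and Tap1 were centred 10055 and 10254 bp away, and Nlrc5 had none within 20 kb.

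The only site shared by ETO2 and IRF2BP2 near these genes lay in an intron of Tap2 (chr17:34347030-34348108, fold enrichment 9.13), centred 7262 bp downstream of the Tap2 start. The paper reports a composite motif, an E-box (CTG) followed by a GATA site, in nearly all shared sites. An exact search on both strands found 0 matches to that composite in the central 201 bases. These bases (chr17:34347634-34347834, mm9, plus strand) are shown with 2 GATA motifs in capitals, the letters that the erythroid factor GATA1 recognises. The first of the motifs is on the other strand.
Tap2 intron: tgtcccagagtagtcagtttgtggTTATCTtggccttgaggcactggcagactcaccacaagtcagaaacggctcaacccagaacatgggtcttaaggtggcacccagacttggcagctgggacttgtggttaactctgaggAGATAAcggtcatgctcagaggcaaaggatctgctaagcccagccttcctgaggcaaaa

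**Figure D2:**
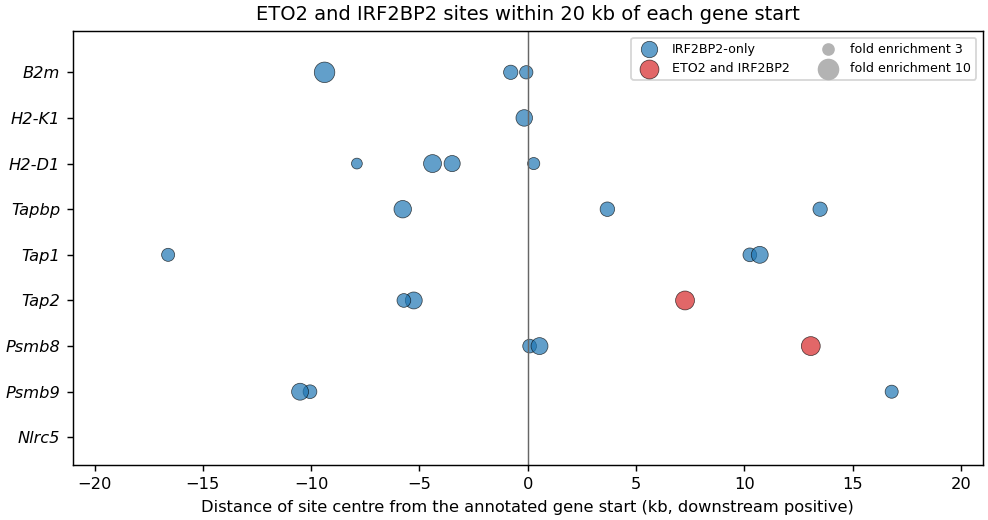
Distance in kb from the centre of each ETO2 or IRF2BP2 site to the annotated start of each member (downstream positive), with circle area growing with fold enrichment. The sites next to the starts of B2m, H2-K1, H2-D1 and Psmb8 are all IRF2BP2-only, and the only shared site is the one in Tap2, also drawn for Psmb8.

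The libraries held 48974700 to 57684600 counts in the Cbfa2t3 table, 44519400 to 52919300 in the Irf2bp2 table, 45840100 to 53645100 in the Kdm1a table, 9929310 to 18697600 in the Gfi1b table and 12187700 to 19623100 in the MEL induction table. Cbfa2t3 counts were 400.3 and 427 CPM in its controls against 202 and 244 with sh2 and 123 and 145 with sh3, and Kdm1a had 152 CPM in its control against 16.9 and 16.3 after KD. Irf2bp2 was at 116 and 119.7 CPM in its controls and at 92.2 and 94.9 after KD, a smaller fall. It did not pass the limits defined below in its own KD. Gfi1b went against its labels, with 216 CPM in the library labelled Gfi1b KD replicate 1, 76.5 in the library labelled Gfi1b KD replicate 2 and 122 and 145 in the controls. That first library also stood apart over all genes, with correlations of 0.93 to the other 3 libraries of its table, which correlated at 0.97 to 0.98 among themselves. Marker levels were summed over the genes of each list that had a row, so the genes summed differ between tables. From a list of 14 erythroid markers the sum was 1428 to 5612 CPM in all libraries. The sum was at most 6.57 CPM from 10 macrophage, 5.35 from 7 T cell, 2.78 from 6 B cell and 1.44 from 6 dendritic cell markers. Every dendritic cell marker that had a row was under 1 CPM in all libraries of that table. Granulocyte markers summed to 2.06 to 19.9 CPM, fibroblast markers to 2.10 to 44.3 CPM and megakaryocyte markers to 200.7 to 1336 CPM.

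After Cbfa2t3 KD, the level of all 8 tested members was below control in every KD library, by a modest amount, and 3 of them passed the limits used by the study (adjusted p of 0.05 or less and a log2 fold change of at least 0.5 in either direction, here by edgeR's quasi-likelihood test). These were B2m, Psmb8 and Psmb9, all lower, so 3 of 8 members against 2.75% of all 12537 genes tested. The 2 control and 4 KD libraries did not overlap for any of the 8 members, against 37.8% of all genes, and the median log2 fold change of the members was -0.46, beside 0.00 for all genes tested. In whole-culture RNA, fewer cells expressing a gene and less RNA per cell cannot be told apart.

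For the light chain B2m, CPM was 124 and 121 in the controls, 84.3 and 83.4 with sh2 and 72.6 and 83.2 with sh3. Every KD library lay below both controls, with a fitted level 0.660 times that of the controls (log2 fold change -0.60, SE 0.071, adjusted p = 0.00116). The heavy chain H2-K1 had 143 and 156 CPM in the controls, 118 and 124 with sh2 and 107 and 112 with sh3. H2-D1 had 48.4 and 52.6 CPM in the controls, 37.1 and 36.6 with sh2 and 33.3 and 40.2 with sh3. Both heavy chains lay below their controls in all 4 KD libraries but missed the fold limit, with log2 fold changes of -0.37 (SE 0.072, adjusted p = 0.0117) for H2-K1 and -0.46 (SE 0.083, adjusted p = 0.00926) for H2-D1.

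Of the peptide-loading genes, the transporter subunit Tap1 was at 52.9 CPM in both controls, 44.0 and 44.3 with sh2 and 35.9 and 37.2 with sh3. Its partner Tap2 was at 81.9 and 91.1 CPM in the controls, 76.4 and 81.5 with sh2 and 80.0 and 80.2 with sh3. Tapasin (Tapbp) was at 58.9 and 71.4 CPM in the controls, 45.0 and 49.6 with sh2 and 46.2 and 48.9 with sh3. The gap between control and KD libraries was wide for Tap1 and Tapbp and under 1 CPM for Tap2. Log2 fold changes were -0.39 (SE 0.097, adjusted p = 0.0333) for Tap1, -0.46 (SE 0.085, adjusted p = 0.00986) for Tapbp and -0.12 (SE 0.064, adjusted p = 0.275) for Tap2, none of which met both limits. The Tapbp value rested on the control used, at -0.59 (adjusted p = 0.0209) without control replicate 1 and -0.31 (adjusted p = 0.140) without control replicate 2, where the lone control is assumed to vary like the KD libraries. H2-D1 was at -0.51 (adjusted p = 0.00668) without sh3 replicate 2.

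The immunoproteasome subunit Psmb8 was at 108 and 111 CPM in the controls, 81.6 and 77.3 with sh2 and 71.7 and 63.1 with sh3 (log2 fold change -0.58, SE 0.094, adjusted p = 0.00537). Psmb9 was at 14.9 and 14.7 CPM in the controls, 10.6 and 10.3 with sh2 and 8.97 and 6.75 with sh3 (log2 fold change -0.69, SE 0.16, adjusted p = 0.0261). Both subunits were lower with each hairpin, and for both every sh3 library lay below every sh2 library. The adjusted p depended on having both control libraries. Without control replicate 1 it was 0.0689 for Psmb8 (log2 fold change -0.60) and 0.201 for Psmb9 (-0.68), and without control replicate 2 it was 0.0712 (-0.56) and 0.163 (-0.71), in fits where the lone control is assumed to vary like the KD libraries. Without sh3 replicate 1 Psmb9 was at -0.69 (adjusted p = 0.0505). The summed erythroid markers were at 1957 to 1970 CPM in the controls and 2544 to 3091 after KD, and the megakaryocyte markers at 444 to 457 and 547 to 648. The fibroblast markers were at 6.38 to 8.34 CPM in the controls and 2.10 to 5.76 after KD. The part of these markers was not tested.

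The hairpins differ in how far they lowered Cbfa2t3 itself. With sh2 alone, 2 of 8 members passed (B2m -0.55 and Psmb9 -0.50), against 7.11% of genes in either direction. With sh3 alone, 4 of 8 passed (B2m -0.65, Tap1 -0.54, Psmb8 -0.70 and Psmb9 -0.92), against 9.19%. In the direct test of sh3 against sh2, 0 of 8 members met both limits, against 3.71% of genes. Tap1 (-0.27, adjusted p = 0.0139), Psmb8 (-0.24, adjusted p = 0.0441) and Psmb9 (-0.42, adjusted p = 0.0451) were lower with sh3 below the fold limit by edgeR. Their adjusted p depended on single libraries. Tap1 was at -0.25 (adjusted p = 0.112) without sh3 replicate 1 and at -0.30 (adjusted p = 0.0647) without sh3 replicate 2. Psmb9 was at -0.63 (adjusted p = 0.00753) without sh3 replicate 1 and at -0.22 (adjusted p = 0.316) without sh3 replicate 2, and Psmb8 was at -0.15 (adjusted p = 0.335) without the latter. Without either control library both were over an adjusted p of 0.08.

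After Irf2bp2 KD, B2m and Psmb8 fell and the other members did not pass the limits, with Tapbp and Tap2 above control in both KD libraries. Thus 2 of 8 members were lower, against 12.5% of 12329 genes tested. Control and KD libraries did not overlap for 7 of 8 members, against 74.1% of all genes, and the median log2 fold change was -0.21, beside -0.01 for all genes.

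B2m was at 119.5 and 133 CPM in the Irf2bp2 controls and at 69.4 and 76.1 after KD (log2 fold change -0.79, SE 0.087, adjusted p = 1.42e-06). This was the largest change of a member in this table. H2-K1 was at 135 and 149 CPM in the controls and at 131 and 130.1 after KD (-0.12, adjusted p = 0.240). H2-D1 was at 36.5 and 47.0 CPM in the controls and at 37.8 and 35.9 after KD, with overlapping groups (-0.18, adjusted p = 0.178). The KD values of both heavy chains were at or near the lower control.

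Tap1 was at 57.2 and 59.9 CPM in the controls and at 50.2 and 49.2 after KD (-0.24, SE 0.082, adjusted p = 0.0247). Tap2 was at 93.4 and 97.1 CPM in the controls and at 108 and 109 after KD (0.19, SE 0.080, adjusted p = 0.0586). Tapbp was at 50.6 and 62.3 CPM in the controls and at 64.9 and 76.3 after KD (0.32, SE 0.10, adjusted p = 0.0170). Tap1 lay below and Tap2 and Tapbp lay above their controls without overlap between groups, all 3 below the fold limit. The Tapbp value rested on single libraries, at 0.18 (adjusted p = 0.174) without control replicate 1, 0.20 (adjusted p = 0.220) without KD replicate 2 and 0.49 (adjusted p = 2.91e-05) without control replicate 2, in fits where a lone library is assumed to vary like the other group.

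Psmb8 was at 100.1 and 105 CPM in the Irf2bp2 controls and at 70.4 and 64.8 after KD (log2 fold change -0.60, SE 0.083, adjusted p = 1.72e-05). Psmb9 was at 18.7 and 20.4 CPM in the controls and at 17.5 and 15.2 after KD (-0.26, adjusted p = 0.0561). Both were below their controls without overlap, and with any 1 library left out B2m stayed between -0.87 and -0.71 and Psmb8 between -0.66 and -0.54. The summed erythroid markers were at 1709 and 1823 CPM in these controls and at 4187 and 4509 after KD, and the megakaryocyte markers at 407 to 467 and at 861 to 899.8. Their part in these results was not tested.

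After Kdm1a KD, in contrast, 5 of 8 members were higher by at least 0.5 log2 units in both KD libraries. The single control gives no spread between controls, so the calls rest on a rule, by which a gene was called where each KD library was at least 0.5 log2 units away from the control on the same side. By that rule B2m, H2-D1, H2-K1, Tapbp and Psmb9 were higher, 5 of 8 members against 13.1% of 12628 genes, and none was lower. The control lay outside the KD pair for 7 of 8 members, against 88.8% of all genes, and the median difference was 0.64, beside 0.00 for all genes.

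The B2m control value of 97.3 CPM compared with 156 and 186 CPM after Kdm1a KD, log2 differences of 0.68 and 0.93. For H2-K1 the control had 126 CPM and the KD libraries 181 and 199 (0.52 and 0.66). For H2-D1 the control had 37.5 CPM and the KD libraries 59.0 and 61.4 (0.65 and 0.71). The light chain and both heavy chains were thus 1.51- to 1.75-fold above the control on average. The Tapbp control value was 40.1 CPM, against 79.1 and 87.1 after KD (0.98 and 1.12). That of Psmb9 was 14.4 CPM, against 35.2 and 30.8 (1.29 and 1.10), on average the largest difference of a member in this table.

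The remaining members behaved differently. Psmb8 had 95.7 CPM in the control against 101.4 and 97.3 after KD, and Tap1 had 45.0 against 44.9 and 47.9. The Tap2 control had 81.7 CPM and both KD libraries were lower, at 67.6 and 71.2 (-0.27 and -0.20). The immunoproteasome subunits Psmb8 and Psmb9, which lie on either side of Tap1, had mean differences of 0.05 and 1.19. Erythroid markers summed to 2083 CPM in the control against 1428 and 1433 CPM after KD, megakaryocyte markers to 388 against 293 to 356 CPM and fibroblast markers to 6.28 against 21.2 to 24.3 CPM. Of the tested markers, 2 of 2 fibroblast, 2 of 4 T cell and 1 of 3 macrophage genes were called higher. So were 1 of 2 B cell and 1 of 6 megakaryocyte genes, against 13.1% of all genes. Called lower were 4 of 10 erythroid, 2 of 6 megakaryocyte, 1 of 3 macrophage and 1 of 2 B cell genes, against 9.8%. The part of these markers in the results was not tested.

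In the Gfi1b table no member passed the limits. By edgeR this was 0 of 8 members, against 0% of 11190 genes tested, while 784 genes had an unadjusted p under 0.05 by edgeR and DESeq2 called 49 genes, none of them a member. Control and labelled KD libraries overlapped for all 8 members, against 39.2% of genes without overlap. The median log2 fold change was 0.05, beside 0.02 for all genes. Fold changes ran from -0.29 (H2-D1) to 0.81 (Tapbp), with SE of 0.21 to 0.43 and adjusted p of at least 0.722 by edgeR. Whether changes of the size seen after Cbfa2t3 KD could be detected at this spread was not tested. The lack of calls therefore does not show that the members were unchanged.

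The libraries labelled Gfi1b KD differed from each other. Tapbp was at 33.4 and 43.3 CPM in the controls, 97.0 in the library labelled KD replicate 1 and 37.4 in that labelled replicate 2. Psmb9 was at 11.9 and 13.3 CPM in the controls, then 11.6 and 20.2, and Psmb8 at 91.6 and 89.4, then 66.1 and 104. In replicate 1 Tapbp was thus high and Psmb8 low, and in replicate 2 the immunoproteasome genes were highest. B2m was at 124 and 139 CPM in the controls, then 131 and 183, H2-K1 at 93.7 and 119.7, then 89.4 and 111, and H2-D1 at 36.3 and 47.5, then 28.9 and 39.4. Tap1 was at 39.8 and 44.9 CPM in the controls, then 55.5 and 35.7, and Tap2 at 60.2 and 57.5, then 60.9 and 55.4. Tapbp was at 1.32 (adjusted p = 1.05e-07) without the library labelled KD replicate 2, which leaves only the library with more Gfi1b than the controls, and at -0.04 (adjusted p = 0.965) without the library labelled KD replicate 1. No member passed in the latter fit, where B2m was at 0.48 (adjusted p = 0.0610). In both fits the lone KD library is assumed to vary like the controls. Erythroid markers summed to 1483 to 1614 CPM in the controls and to 1613 to 4195 CPM in the labelled KD libraries. Megakaryocyte markers summed to 242 to 314 and to 201 to 919 CPM, and fibroblast markers to 17.1 to 19.3 and to 23.8 to 44.3 CPM. Their part was not tested.

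After induced differentiation of MEL cells, Tapbp rose and Psmb8 fell past the limits and the other 6 members did not pass. Thus 1 of 8 members was higher, against 12.4% of 11713 genes, and 1 of 8 lower, against 14.8%, both near the share of all genes. The groups did not overlap for 7 of 8 members, against 67.3% of all genes, and the median log2 fold change was -0.25, beside -0.02 for all genes.

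Tapbp was at 39.5 and 40.6 CPM in non-induced cells and at 118 and 117.9 in induced cells, a 2.94-fold rise with close replicates (log2 fold change 1.56, SE 0.24, adjusted p = 0.000558). Tap1 was at 45.6 and 36.9 CPM before and 63.7 and 67.8 after induction (0.67, SE 0.25, adjusted p = 0.0601), and passed with the replicate number as a block (adjusted p = 0.0344). Tap2 was at 50.3 and 47.6 CPM before and 61.3 and 57.4 after (0.28, adjusted p = 0.422). All 3 loading genes were higher in both induced libraries than in both non-induced libraries.

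Psmb8 was at 73.1 and 90.2 CPM in non-induced and at 37.1 and 29.4 in induced cells, a 2.45-fold fall (log2 fold change -1.30, SE 0.26, adjusted p = 0.00293). Psmb9 was at 9.71 and 13.5 CPM before and 7.81 and 3.90 after (-0.98, SE 0.43, adjusted p = 0.104), and the value rested on the induced library used, being -1.58 (adjusted p = 0.0134) without induced replicate 1 and -0.56 (adjusted p = 0.482) without induced replicate 2. In these fits the lone induced library is assumed to vary like the other group. Both immunoproteasome genes were lower in both induced libraries. B2m was at 131 and 124 CPM before and 116 and 103 after (-0.22, adjusted p = 0.518), H2-K1 at 109.6 and 86.9 before and 80.5 and 60.8 after (-0.48, adjusted p = 0.178), and H2-D1 at 46.0 and 29.5 before and 34.0 and 28.5 after (-0.28, adjusted p = 0.519). Only H2-D1 overlapped between the groups. Summed erythroid markers were 2238 and 2317 CPM before and 5404 to 5612 CPM after induction, and megakaryocyte markers 412 to 551 and 1196 to 1336 CPM. Fibroblast markers went the other way, from 22.3 to 23.6 CPM before to 3.62 to 10.7 CPM after induction. Their part was not tested.

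**Figure D3:**
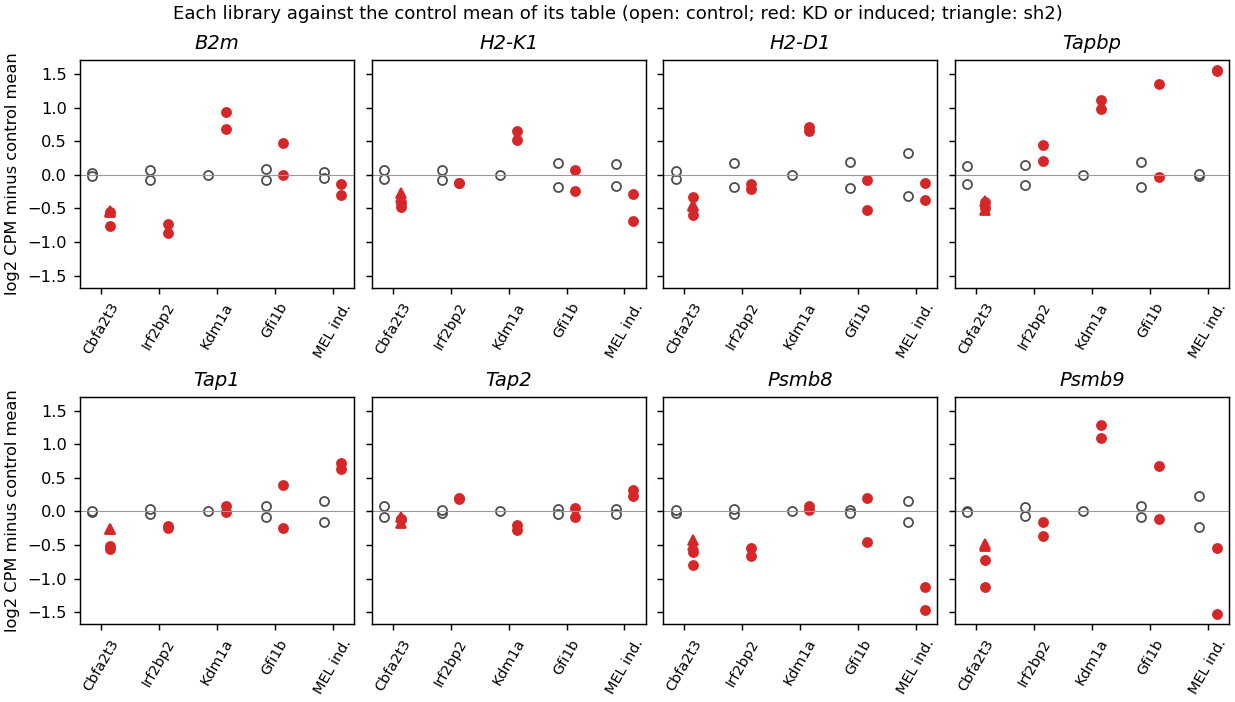
Log2 CPM of each tested member in every library, relative to the mean of the controls of the same table, 1 point per library (open for control, red for KD or induced, triangles for sh2). All 8 members lie below 0 in the 4 Cbfa2t3 KD libraries, while B2m, H2-D1, H2-K1, Tapbp and Psmb9 lie above 0 in both Kdm1a KD libraries.

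Whether an effect differed between depletions was tested as a difference of log2 effects across tables by edgeR, each effect taken against the controls of its own table. Tapbp alone met both limits between Irf2bp2 and Cbfa2t3 KD, 1 of 8 members against 14.4% of genes, so near the share of all genes. Its effect was 0.78 higher after Irf2bp2 KD (SE 0.16, adjusted p = 0.00390). Tap2 was 0.31 higher below the fold limit (adjusted p = 0.0290), and the B2m effects differed by -0.19 (SE 0.12, adjusted p = 0.253). No member met the limits for Gfi1b against Cbfa2t3 KD (0 of 8, against 0.69% of genes) or Gfi1b against Irf2bp2 KD (0 of 8, against 0.842%). Both counts rested on the libraries labelled Gfi1b KD, and so did those over all genes. Against Cbfa2t3 KD 3 members were called without replicate 1 (8.84% of all genes) and 3 without replicate 2 (30.1%). Against Irf2bp2 KD these were 4 (18.3%) and 3 (33.7%).

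The Kdm1a effects were compared in the same way after the data had been seen, with the lone control assumed to vary like the other groups. Against Cbfa2t3 KD, 6 of 8 members had a higher effect after Kdm1a KD, against 23% of genes in either direction. The differences were 1.90 for Psmb9, 1.52 for Tapbp, 1.42 for B2m, 1.15 for H2-D1, 0.97 for H2-K1 and 0.64 for Psmb8, with adjusted p from 6.35e-05 (Tapbp) to 0.0122 (Psmb8). Against Irf2bp2 KD the same 6 members were called, against 33% of genes, with differences of 1.59 for B2m, 1.44 for Psmb9, 0.84 for H2-D1, 0.71 for Tapbp, 0.70 for H2-K1 and 0.64 for Psmb8. Tap1 and Tap2 met both limits in neither comparison, with differences of 0.44 and -0.11 against Cbfa2t3 KD and 0.26 and -0.45 against Irf2bp2 KD. The error of the single Kdm1a control cannot be told apart from the effect.

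**Figure D4:**
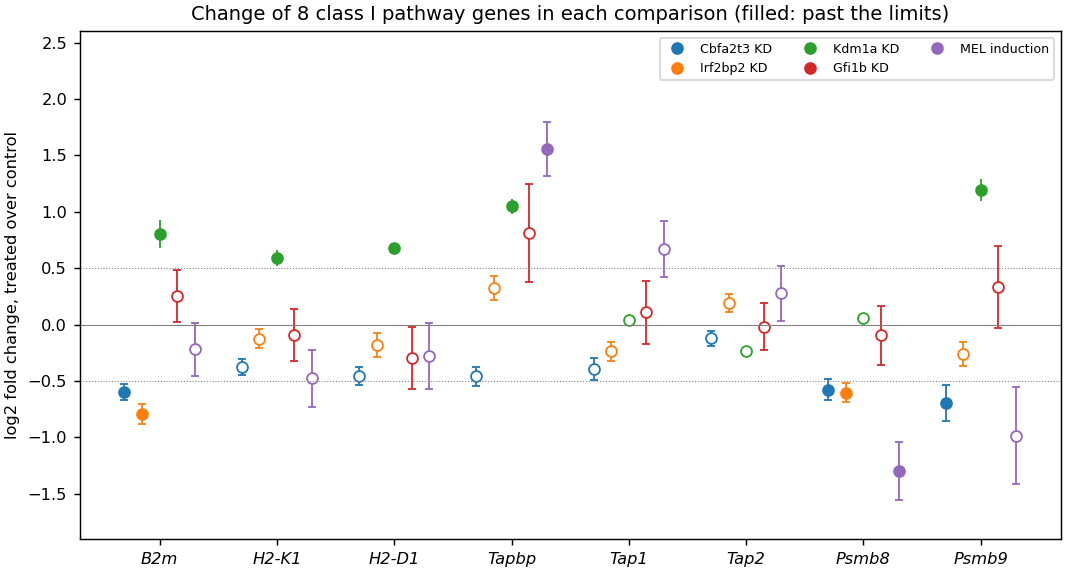
Log2 difference between treated and control libraries for each tested member in the 5 comparisons, with the SE as bars where a test was made and, for Kdm1a, the mean as a point and the 2 KD libraries as the ends of the bar. Filled points met the limits. Tapbp ranges from -0.46 after Cbfa2t3 KD to 1.56 after MEL induction, and Tap2 stays between -0.24 and 0.28.

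Centred within each table, log2 CPM over the 21 libraries described how the members varied together. These points share their tables, depths and treatments, and the correlations are descriptions. Of 28 pairs of members, 16 were positive and 12 negative. H2-D1 and H2-K1 were the most alike (r = 0.89, n = 21 libraries), though reads can be shared between them, followed by H2-K1 and Psmb9 (r = 0.82) and Psmb8 and Psmb9 (r = 0.79). B2m followed H2-K1 (r = 0.74), and Tapbp followed Tap1 (r = 0.75) but ran against Psmb8 (r = -0.61). Genes outside the member list were also compared with the mean of the members, and other class I genes were not kept out. The 5 most alike, out of 11053 genes, were Ppt1 (r = 0.90), C920025E04Rik (0.89), Ptgs1 (0.86), Plekhg3 (0.86) and 9130008F23Rik (0.85).

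Other heavy chains of the class I family, from a list of 25 classical, non-classical and class I-like genes, were tested beside the members. After Cbfa2t3 KD 0 of 17 passed the limits, against 2.75% of all genes lower and 2.99% higher, with a median log2 fold change of -0.37, beside 0.00 for all genes. After Irf2bp2 KD 3 of 16 were lower, against 12.5% of all genes, namely H2-T22 (-1.10, adjusted p = 0.00545), H2-T24 (-0.80, adjusted p = 1.3e-05) and Mr1 (-0.66, adjusted p = 0.000133), the last presenting vitamin metabolites to innate-like T cells. After Kdm1a KD 6 of 18 were higher, against 13.1% of all genes, with a median of 0.37, and those 3 genes differed by 0.22, -0.16 and 0.11. With MEL induction 1 of 16 was higher, H2-T24 (1.06, adjusted p = 0.0185), a share below the 12.4% of all genes, and 0 of 16 passed in the Gfi1b table, where no gene did by edgeR.

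Of 8 chaperones and peptide-loading enzymes, 4 fell with MEL induction, against 14.8% of all genes, calreticulin (Calr, -1.24), Hspa5 (-0.85), calnexin (Canx, -0.71) and Pdia3 (-0.70), and the peptide-trimming enzyme Erap1 rose (1.24), with a median of -0.55. Erap1 also rose after Irf2bp2 KD (0.61, adjusted p = 0.00393), the only one of 8 called there, against 10.1% of all genes that rose. After Cbfa2t3 KD none of the 8 met the fold limit, with a median of -0.24 and Calr at -0.42 (adjusted p = 0.00194). None passed in the Gfi1b table or met the rule in the Kdm1a table, and the tapasin homologue Tapbpl had values between -0.41 and 0.01 in all 5 comparisons.

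Of 9 other proteasome genes of the pathway, 5 fell in induced MEL cells, against 14.8% of all genes, with a median of -0.77. These were the third immunoproteasome subunit Psmb10 (-1.66), the constitutive subunits Psmb7 (-1.03) and Psmb5 (-0.84), the activator subunit Psme1 (-0.86) and the maturation factor Pomp (-0.77). The constitutive subunit Psmb6 was at -0.10 (adjusted p = 0.798). In the Kdm1a table the activator subunits Psme1 (0.68) and Psme2 (0.80) were the 2 of 9 called, both higher, against 13.1% of all genes, and Psmb10 differed by 0.16. None of the 9 passed after Cbfa2t3 or Irf2bp2 KD or in the Gfi1b table, with Psmb10 at 0.10, -0.10 and -0.27 in that order.

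Factors known to act on class I promoters were listed as well, 18 of them tested in each table. After Kdm1a KD 7 of 18 were higher, against 13.1% of all genes, and none lower. They included Rfx5 (1.07), a subunit of the complex that binds X boxes, the interferon-signalling factors Stat2 (1.03) and Irf9 (0.78), and Irf1 (0.94), with 4.31 CPM in the control against a mean of 8.34 after KD. After Irf2bp2 KD Rfxank, another subunit of the X box complex, rose (0.53, adjusted p = 0.00256), the only factor of the list that was higher, against 10.1% of all genes. After Cbfa2t3 KD Nfkb1, which encodes an NF-kB subunit, fell (-0.78, adjusted p = 0.000267), and it fell again with MEL induction (-1.39, adjusted p = 0.00129). Induction also raised 5 of 18, against 12.4% of all genes, including Rfxank (1.19), Nfkb2 (1.04) and Irf2 (0.86), and 0 of 18 passed in the Gfi1b table.

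Of 11 interferon receptor and signalling genes, 4 fell after Irf2bp2 KD, against 12.5% of all genes, including both chains of the interferon-gamma receptor, Ifngr1 (-1.20) and Ifngr2 (-1.04). The feedback inhibitor Socs3 rose (1.46), 1 of 11 against 10.1% of all genes. After Kdm1a KD 3 were higher, against 13.1% of all genes, and 1 lower, against 9.8%, with Ifngr2 at 1.96 and 2.04 in the KD libraries and Socs3 at a mean of -1.01. Socs3 was the only one called after Cbfa2t3 KD (0.56), where 2.99% of all genes rose. Induction raised 2 of 11, Socs3 (1.68) and Jak1 (0.69), against 12.4% of all genes. It lowered 1 of 11, Ifngr1 (-1.03), against 14.8%. Interferon-stimulated genes outside the class I pathway, a list of 33, were read beside the members. After Irf2bp2 KD 14 of 25 fell, against 12.5% of all genes, and none rose, with a median of -1.05 beside -0.21 for the members, led by Ddx58 (-2.32) and Irf7 (-2.30). After Kdm1a KD 17 of 25 were higher, against 13.1%, and 1 lower, with a median of 0.92 beside 0.64 for the members. After Cbfa2t3 KD 3 of 26 fell, against 2.75% (median -0.33, beside -0.46 for the members), and after induction 3 of 23 rose, close to the 12.4% of all genes, and 1 fell (median 0.15). None of 20 passed in the Gfi1b table (median 0.53), by edgeR.

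**Figure D5:**
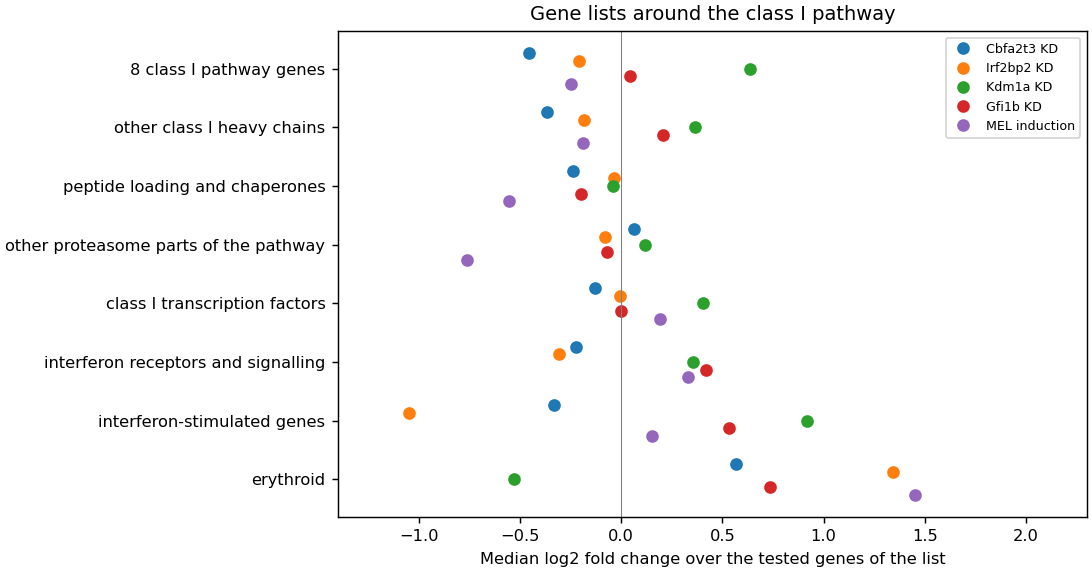
Median log2 difference of the members and of each other gene list in the 5 comparisons, over the genes tested in each list. The members' medians are -0.46, -0.21, 0.64, 0.05 and -0.25 for Cbfa2t3, Irf2bp2 and Kdm1a KD, the Gfi1b table and MEL induction. Those of the interferon-stimulated genes are -0.33, -1.05, 0.92, 0.53 and 0.15.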

How the data were processed

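RNA-Seq libraries of MEL cells and a list of ETO2 and IRF2BP2 ChIP-Seq sites were analysed. The authors aligned RNA-Seq reads to mm9 with TopHat2 and deposited, per RefSeq gene, raw read counts and RPKM values, the latter normalized to transcript length and depth. The submitters' processing notes name Bowtie, TopHat2 and DESeq2. The strand setting of the counting and the agent of MEL induction are not given in the sources used here. The deposited fold ratio of each site is its enrichment over IgG, and the deposited p-value columns of the sites were not used. Sites carry a class code whose meaning (ETO2-only, shared, IRF2BP2-only) was read by matching the class sizes to the study's methods. ETO2 sites came from an earlier study, and 1 library was used per antibody, so sites have no replicate. The authors' own fold change and p-value columns for RNA-Seq were not used either.

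Each table was analysed on its own from the counts. Genes passing filterByExpr were tested with edgeR 4.0.16 (R 4.3.3; TMM, glmQLFit and glmQLFTest, no covariate) and Benjamini-Hochberg adjustment over all genes tested. Calls used the study's limits, an adjusted p no higher than 0.05 with a log2 fold change of at least 0.5 either way. Kdm1a, with 1 control, was described by TMM-normalized log2 CPM with a prior count of 2. CPM in the text is the count scaled by the TMM-normalized library size. RPKM served only to compare levels between genes. Differences of effects were fitted over the libraries of both tables with a group per table and arm. Sites were assigned by their centre to starts in the mm9 annotation (GENCODE vM1). Promoter windows were RefSeq GRCm38.p6 sequences. The procedure was tested on simulated counts. Alternatives were DESeq2 1.42.0, its size factors, other filters, a prior count of 0.5, the replicate number as a block and leaving out each library.

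In the Cbfa2t3 table same-numbered libraries deviated together from their group means (correlations of 0.12 to 0.25 over the 3 pairs of groups). The numbers were therefore taken to pair the libraries there, but the values in the text are from the fit without that pairing. With the number as a block, edgeR called the same members. Their adjusted p was then 0.00445 for B2m, 0.0145 for Psmb8 and 0.0477 for Psmb9. All 9 members are described in each comparison. From each other list, the up to 3 genes with the largest change among those called in a replicated comparison were named, together with set factors, proteasome subunits and chaperones. An item of these lists is not reported here. The members and lists were chosen with earlier results of these data known. The study reports independent biological replicates, and with 2 libraries a group the p-values rest on the spread of few samples.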

Additional observations from a re-analysis of the deposited data

Results flagged for a closer look

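In the 4 Cbfa2t3 KD libraries, the B2m level of sh3 replicate 1 (72.6 CPM) lay far from the others, with a gap of 0.903 of the whole range. For Nlrc5 this share was 1, since a single count in sh2 replicate 1 stood against 0 counts in the other 3 libraries. Among continuous values chance alone gives such a gap in about 5% of groups, a share that does not apply to the near-zero counts of Nlrc5.

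The effect on Tapbp differed between Irf2bp2 and Cbfa2t3 KD by a log2 of 0.783 by edgeR's test of the difference. It was the only 1 of 8 members called there, near the 14.4% of all genes. Between Kdm1a and Cbfa2t3 KD the effects differed by 1.42 for B2m, 1.15 for H2-D1, 0.973 for H2-K1, 1.52 for Tapbp, 0.639 for Psmb8 and 1.90 for Psmb9. Between Kdm1a and Irf2bp2 KD they differed by 1.59 for B2m, 0.843 for H2-D1, 0.698 for H2-K1, 0.708 for Tapbp, 0.640 for Psmb8 and 1.44 for Psmb9. All of these were higher after Kdm1a KD, and both Kdm1a comparisons were chosen after seeing the data.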

How the results depend on the processing

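Counts of called members and of site pairs were within 1.5 times the stated values in 98 of the alternative fits and moved in 14. Without the fold limit, 7 members passed after Cbfa2t3 KD in place of 3 (against 11.4% of all genes), 4 after Irf2bp2 KD in place of 2 (47.1%), 3 for sh3 against sh2 in place of 0 (13.7%), and 2 for the difference between Irf2bp2 and Cbfa2t3 KD in place of 1 (22.6%). Leaving out each library gave 1 to 4 members after Cbfa2t3 KD (1 without control replicate 2, against 2.82% of all genes, and 4 without sh3 replicate 2, against 5.33%), 0 to 1 for sh3 against sh2 (1 without sh3 replicate 1, against 3.29%), and 0 to 1 in the Gfi1b table (1 without the library labelled KD replicate 2, against 26.7%, so below the share of all genes). The differences of the Gfi1b effect ranged from 0 to 3 members against Cbfa2t3 KD and from 0 to 4 against Irf2bp2 KD, the counts above 0 arising without either of the libraries labelled Gfi1b KD. The cause was not tested.

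Directions that reversed did so only when a library was left out, and none belonged to a called member. In the Gfi1b table the log2 fold change then ran from -0.0255 to 0.476 for B2m, -0.272 to 0.0855 for H2-K1, -0.249 to 0.372 for Tap1, -0.0906 to 0.0293 for Tap2, -0.0366 to 1.32 for Tapbp, -0.472 to 0.193 for Psmb8 and -0.136 to 0.681 for Psmb9. H2-D1 ran from -0.348 to 0.0211 after Irf2bp2 KD and from -0.558 to 0.0695 with MEL induction. With DESeq2's size factors and its Wald test the counts of called members were the same. For Kdm1a KD an edgeR fit with the spread of the KD pair, which holds no error of the control, also called 5 members, against 22.5% of all genes. The number of pairs of site and gene was 23, and became 9 with sites at or above the median fold enrichment of all sites, 9 within 5 kb and 82 within 100 kb.

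Replicates share numbers across groups. Outside the Cbfa2t3 table there is 1 pair of groups each, and the deviations of same-numbered libraries correlated at 0.03 for Irf2bp2, 0.00 for Gfi1b and 0.20 for MEL induction, which for the last does not settle whether the numbers pair the libraries. With that number as a replicate block, 3 and 2 members were called after Cbfa2t3 and Irf2bp2 KD and 0 in the Gfi1b table. With MEL induction 3 were called, against 2 without the block. After Cbfa2t3 KD no call changed, with Tap1 at an adjusted p of 0.0618 in place of 0.0333. Over all genes the block changed the number of calls from 720 to 632, 2778 to 2834, 0 to 0 and 3187 to 3916. Counts of 0 to 14 for Nlrc5 and the depth of 9929310 to 19623100 counts in the Gfi1b and MEL induction libraries limit the precision there.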
